A study of Mus musculus with 4 samples.

Results

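The LIM homeobox genes Lhx1, Lhx2, Lhx5, Lhx6 and Lhx8, with the long noncoding gene Lhx1os that starts beside Lhx1, were followed through the cells of the embryonic mouse hypothalamus. These 6 genes were taken by name and make up 6 of the 27998 genes of the count table, of which 19170 had at least 1 UMI. The study dissected the GFP-positive region that marks the arcuate nucleus (ARC) from 6 Pomc-eGfp embryos on a C57BL/6 background, in which green fluorescent protein follows the Pomc promoter, combined the tissue, dissociated it with papain and made 1 droplet library (10X Genomics) in which a UMI, a molecular tag, marks each captured transcript. The age is given as E15, while the sample titles read E15_5, and the samples are sequencing runs of the library in 1 table that does not tell runs or embryos apart. No sorting of cells by GFP is described, and there was 1 group of animals. With 1 pooled library there were no replicates, so no test is given and every interval is a 95% interval of counting error only.

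LIM homeodomain proteins are transcription factors that bind DNA through a homeodomain and pair through their LIM domains with the bridging protein Ldb1, so that neighbouring neurons which carry different members take on different identities. In the forebrain, Lhx1 and Lhx5 are close relatives used in groups of hypothalamic and diencephalic neurons. Lhx2 works in progenitors and in the thalamus, where its near relative Lhx9 is also expressed. Lhx6 and Lhx8 are known for the ventral telencephalon, where they shape GABAergic and cholinergic neurons. Nkx2-1 marks the ventral hypothalamic field, Dlx1 and Dlx2 mark forebrain neurons of the GABA lineage, and Tcf7l2 is strong in the thalamus and habenula.

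In the GENCODE annotation of GRCm38, Lhx1 lies at chr11:84518284-84525535 on the minus strand and the long noncoding Lhx1os at chr11:84525660-84535831 on the plus strand. Lhx2 lies at chr2:38339281-38369733 on the plus strand, Lhx5 at chr5:120431699-120441223 on the plus strand, Lhx6 at chr2:36081953-36105408 on the minus strand and Lhx8 at chr3:154306294-154330659 on the minus strand. Lhx1 and Lhx1os point away from each other, with RefSeq start sites 126 bases apart. The 124 bases between the GENCODE gene models (chr11:84525536-84525659, GRCm38.p6, minus strand, sequence from RefSeq) are shown because both transcripts begin beside them. The transcripts met in the same neurons below.
Lhx1 to Lhx1os interval: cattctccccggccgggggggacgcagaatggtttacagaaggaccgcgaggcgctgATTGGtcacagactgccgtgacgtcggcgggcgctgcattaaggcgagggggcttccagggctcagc
The capitals mark the only match to CCAAT on either strand, which reads ATTGG here and begins 68 bases from the Lhx1 start. The interval was 66.1% G or C and held 12 CG pairs. CCAAT was present in 37.4% of 32851 promoter windows of 300 bases, so a match of this length is frequent and says nothing by itself about a factor.

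The 6465 barcodes, all distinct, held 26277265 UMIs, and 6351 cells with 24430646 UMIs passed the limits of 200 to 4500 genes, at most 10% mitochondrial UMIs and at most 10 Hba-a1 UMIs, with a median of 3338 UMIs per cell. A mitochondrial limit of 5% would leave 5040 cells. The methods state the limit of 10%, but the cell number of the study lies nearer to that left by the stricter limit, so the cells described here include many that the study may not have kept. Neurons were taken as cells with at least 2 UMIs of Stmn2, a protein of growing neurites, which gave 4006 neurons (median 3408.5 UMIs) and 2345 other cells (median 3182). The cut passes through a continuum, since 640 cells had 1 Stmn2 UMI and 376 had 2. The neuronal genes Tubb3 and Elavl3 had a UMI in 97.4% and 84.6% of the neurons against 41.0% and 22.5% of the other cells, and the 8 arcuate markers had one in 2.32% (Ghrh) to 39.7% (Nhlh2) of the neurons. Of these markers 4 were at least 2-fold higher in neurons (Nhlh2, Npy, Ghrh and Isl1), while Nkx2-1 (31.8% against 23.4% of cells), Otp and Tbx3 were within 2-fold and Pomc was lower (346 against 867 CPM, UMIs scaled to all UMIs of the group). Over all genes compared, 11.4% of 14097 were higher and 23.2% lower. The neurons were split by at least 1 UMI of Nkx2-1, of Dlx1 or Dlx2 (Dlx) and of Tcf7l2 into 8 classes, and the other cells into 5. Of the latter, 191 cells with vascular or fibroblast genes and 574 with the pituitary genes Pitx1 or Pou1f1 served as the cells in which free RNA would appear. A level is in CPM, the usual scale of a gene's UMIs over all UMIs pooled in a group, and genes were called higher or lower where 2 pooled levels differed by at least 2-fold, among genes with at least 20 UMIs in both groups together.

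Of the members, 4 were found in enough cells to be followed. Lhx2 had a UMI in 396 of 4006 neurons (9.89%, 8.98 to 10.9%), Lhx1os in 317 (7.91%, 7.10 to 8.79%), Lhx1 in 204 (5.09%, 4.43 to 5.82%) and Lhx5 in 154 (3.84%, 3.27 to 4.49%). Lhx8 was found in 9 neurons (0.225%, 0.103 to 0.426%) and Lhx6 as 1 UMI in 1 neuron. After each cell was thinned to 2167 UMIs, which left out 280 neurons, the shares were 6.60% for Lhx2, 6.28% for Lhx1os, 4.03% for Lhx1 and 2.07% for Lhx5. Most positive neurons held few molecules: 135 of the 154 Lhx5 neurons had 1 UMI, as did 277 of the 396 Lhx2 neurons and 100 of the 204 Lhx1 neurons, while 94 of the 317 Lhx1os neurons had 4 or more. A neuron without a UMI therefore cannot be taken to lack the transcript.

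Lhx1, Lhx1os and Lhx5 were higher in neurons than in the other cells, and Lhx2 was not. Of the 5 members that could be compared, 3 were higher and 0 lower, where 11.4% of 14097 genes were higher and 23.2% lower. The level of Lhx1 was 25.4 CPM in neurons and 4.57 in other cells (log2 ratio 2.48, 2.01 to 2.98). Lhx1os stood at 57.0 and 13.6 CPM (2.07, 1.79 to 2.35) and Lhx5 at 11.4 and 3.01 CPM (1.92, 1.33 to 2.56). Lhx2 had nearly the same level on both sides, 38.9 and 37.5 CPM (0.05, -0.14 to 0.25). Lhx8 had 19 UMIs in neurons and 9 in other cells (1.23 and 1.0 CPM, 0.29, -0.92 to 1.62), so neither direction nor equality can be read from them. The size of the Lhx1 and Lhx1os ratios depended on the Stmn2 cut: with at least 1 Stmn2 UMI they were 3.64 and 2.69, and with at least 3 UMIs 1.4 and 1.14.

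The members also differed along the Stmn2 count, which rises as neurons mature and also with the UMIs of a cell. From cells with 0 over 1, 2 to 4, 5 to 9 and 10 or more Stmn2 UMIs, the level of Lhx1 was 1.88, 11.2, 41.4, 36.0 and 11.9 CPM. Lhx1os followed the same course, with 8.14, 27.0, 106, 79.1 and 21.8 CPM. Both were thus highest in cells with intermediate Stmn2 counts. Dlx neurons, which held 296 of the 393 Lhx1 UMIs of neurons, had 1927 CPM of Stmn2 against 2605 in neurons without Dlx. The course within Dlx neurons was not computed, so it cannot be told apart from where Dlx neurons fall among the bins. Lhx5 stood at 2.51, 4.24, 8.16, 9.83 and 13.8 CPM, the highest value being in the cells with the most Stmn2. Lhx2 ranged from 26.9 to 52.9 CPM over the bins, with 34.5 CPM in cells without Stmn2. The median UMIs of the bins were 3185, 3165.5, 2673, 3205.5 and 4471, so depth was uneven over the bins. In cells thinned to 2167 UMIs the shares in the same order were 0.348, 1.63, 5.51, 5.13 and 2.18% for Lhx1 and 1.53, 3.25, 9.11, 8.30 and 2.84% for Lhx1os. For Lhx5 they were 0.765, 0.362, 1.57, 1.74 and 2.65%, again with the highest in the last bin.

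**Figure D1:**
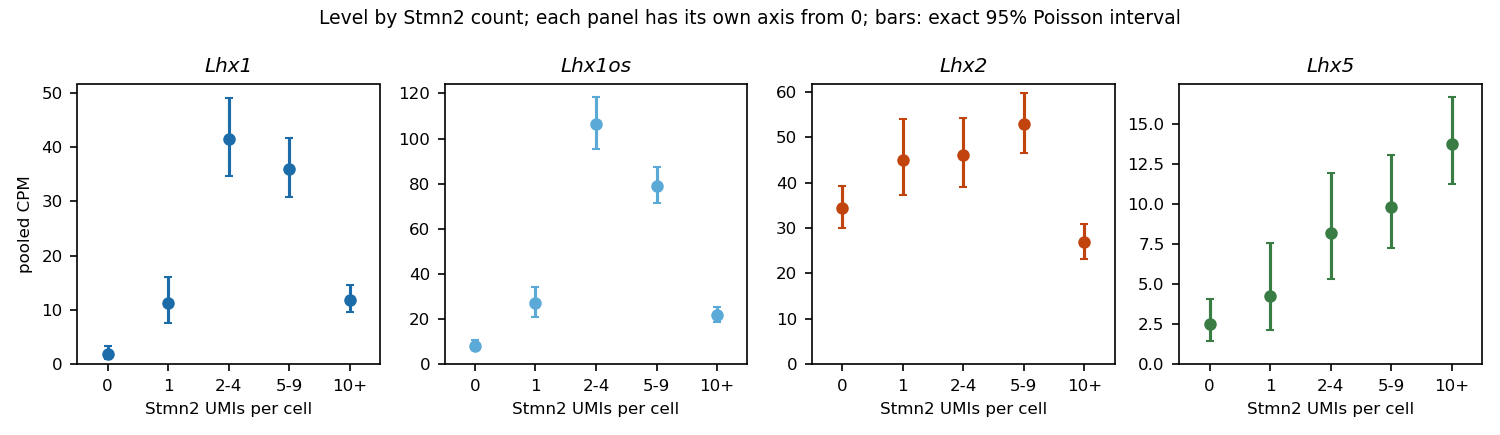
Pooled level (CPM, each panel with its own axis from 0) of Lhx1, Lhx1os, Lhx2 and Lhx5 in cells binned by Stmn2 UMIs, with bars for the exact Poisson interval. Lhx1 and Lhx1os peak at 2 to 4 Stmn2 UMIs (41.4 and 106 CPM), while Lhx5 reaches 13.8 CPM in the last bin.

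Lhx1, a regulator of neuronal differentiation, had most of its UMIs in neurons of the Dlx class. In Dlx neurons its level was 171 CPM against 7.07 CPM in the neurons without Dlx (log2 ratio 4.6, 4.26 to 4.94), and 144 of 508 Dlx neurons (28.3%, 24.5 to 32.5%) had a UMI against 60 of 3498 (1.72%). In the 306 neurons with Dlx and neither Nkx2-1 nor Tcf7l2 the share reached 38.2% (32.8 to 43.9%) and the level 264 CPM. The next classes were Dlx with Tcf7l2 (23.6% of 72 neurons, 118 CPM), Dlx with Nkx2-1 (10.4% of 77 neurons, 63.4 CPM) and neurons with none of the marks (4.18% of 956 neurons, 24.4 CPM). Down to the other cells of no named class (2.35% of 682 cells, 14.4 CPM), the interval of each of these steps left out 0, and below that neighbouring classes could not be told apart. Lhx1 had 0 UMIs in the vascular, pituitary and cycling cells, where limits of 3 counts correspond to shares of 1.57%, 0.523% and 1.79%. The 2 Nkx2-1 classes without Dlx had 3 cells each, 0.596% and 0.469%, values close to what the reference cells allow.

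Lhx1os, a long noncoding RNA, followed the order of Lhx1 by level through the first 4 classes, at 552, 222, 101 and 63.6 CPM, with shares of 47.4% (41.7 to 53.1%), 29.2%, 10.4% and 8.16%. By share, the 53 neurons with all 3 marks came before the last 2 of these, at 11.3% (6 neurons, 4.27 to 23.0%). In Dlx neurons it stood at 352 CPM against 19.7 CPM (log2 ratio 4.16, 3.95 to 4.37). It had a UMI in 10 of 574 pituitary cells (1.74%, median 4166.5 UMIs per cell) and 1 of 191 vascular cells, and in the neurons with Nkx2-1 and Tcf7l2 its share was 1.39% (0.561 to 2.85%, median 4922 UMIs). After thinning these neurons stood at 1.22% and the pituitary cells at 0.882%, with overlapping intervals, so the share is not read as expression, and free RNA and a low level cannot be told apart here. In progenitor cells, with 57 UMIs, it reached 4.38% and 23.9 CPM, where Lhx1 reached 1.23% and 5.46 CPM.

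Lhx2, a factor of forebrain patterning and thalamic axon growth, had its highest level in neurons with Tcf7l2 and neither Nkx2-1 nor Dlx. It was found in 289 of those 1400 neurons (20.6%, 18.6 to 22.9%, or 14.1% after thinning) at 81.5 CPM. Progenitor cells (15.9% of 730 cells, 67.2 CPM), cycling cells (22.0% of 168 cells, 64.3 CPM, 48.8 to 83.1) and other cells of no named class (10.7%, 60.3 CPM) came next by level. The levels of those 3 did not differ beyond their intervals, and the interval of the cycling cells held 81.5 CPM. The share of the last lay below the intervals of the progenitor and cycling cells, but median depths were 2740, 4772 and 2601.5 UMIs. After thinning the shares were 11.2% (8.74 to 14.1%), 13.2% (8.37 to 19.5%) and 8.51%, the last inside the interval of the cycling cells. The remaining 7 neuron classes lay between 5.48 and 27.9 CPM. In 574 pituitary cells there was 1 cell with Lhx2 (0.174%) and in 191 vascular cells 1 (0.524%). With Tcf7l2 the level was 58.5 CPM and without it 12.1 CPM (log2 ratio 2.27, 1.93 to 2.63), while it was lower in the Nkx2-1 neurons (15.1 against 51.8 CPM, -1.78, -2.13 to -1.44) and in the Dlx neurons (15 against 41.9 CPM, -1.48, -2.11 to -0.91).

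Lhx5, a factor of diencephalic and hypothalamic development, had its highest levels in Nkx2-1 neurons without Dlx. It had a UMI in 110 of 1272 Nkx2-1 neurons (8.65%, 7.16 to 10.3%) and in 44 of 2734 others (1.61%, 1.17 to 2.15%), at 22.8 and 5.19 CPM (log2 ratio 2.14, 1.66 to 2.63). Its share was 9.55% of the 639 neurons with Nkx2-1 alone and 9.54% of the 503 with Nkx2-1 and Tcf7l2, but the level was 31.7 CPM in the former and 19.3 CPM in the latter, and after thinning the shares were 5.97% and 3.06%. The latter neurons were deeper, with a median of 4922 against 3147 UMIs. Neurons with none of the marks had 11.1 CPM. In 508 Dlx neurons there was 1 UMI of Lhx5 against 175 in the rest, 0.578 against 12.8 CPM (log2 ratio -4.46, -9.78 to -1.97). Pituitary cells had 0 UMIs (limit 0.523%), and vascular cells had 1.

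**Figure D2:**
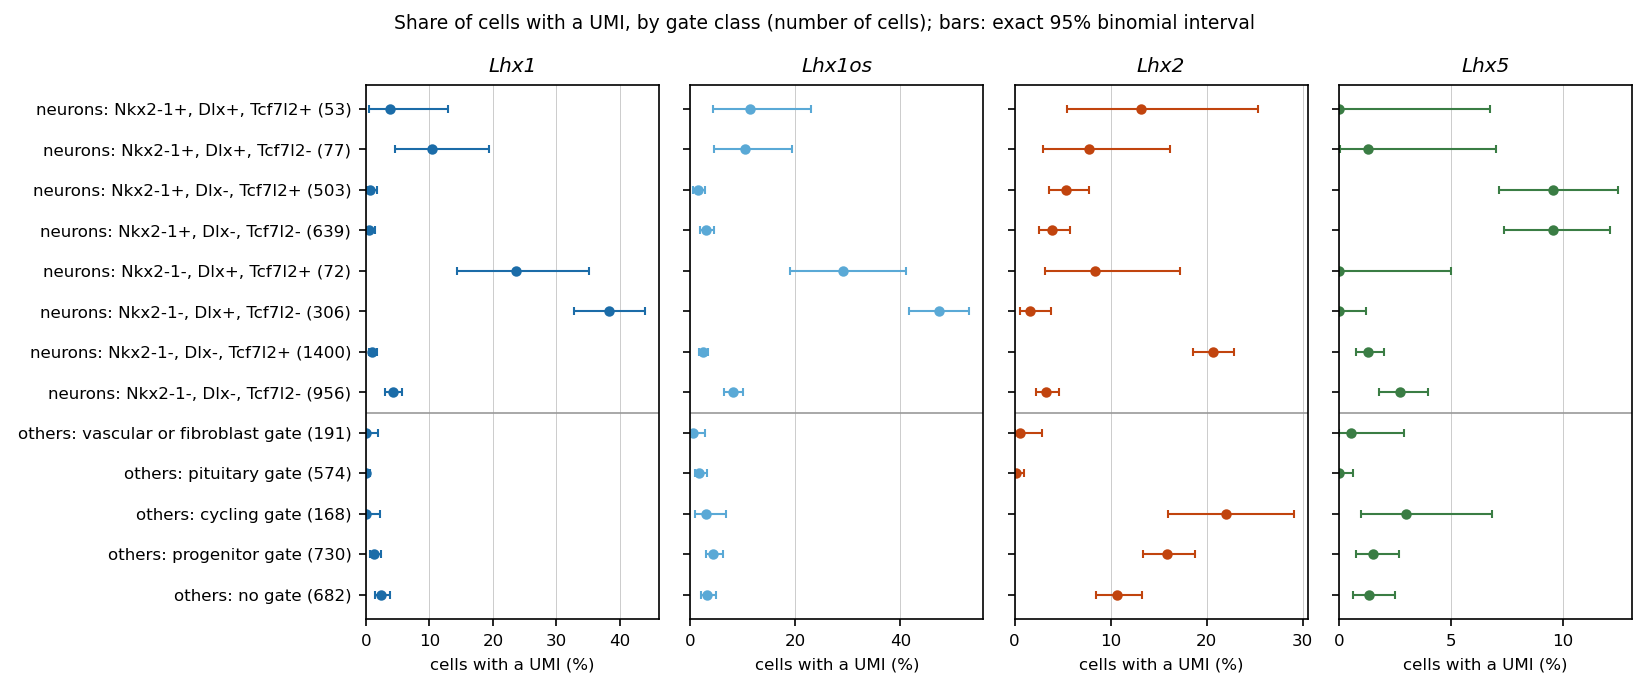
Share of cells with a UMI (percent) of Lhx1, Lhx1os, Lhx2 and Lhx5 in the 8 neuron classes and 5 classes of other cells, with the number of cells beside each class and bars for the exact binomial interval. Lhx1 and Lhx1os peak in the Dlx class (38.2% and 47.4%), Lhx2 in the Tcf7l2 neurons and cycling cells (20.6% and 22.0%) and Lhx5 in the Nkx2-1 classes without Dlx (9.55% and 9.54%). Depth is uneven between classes, and after thinning the shares of Lhx2 were 14.1% in those Tcf7l2 neurons and 13.2% in cycling cells.

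Set side by side, the 4 members that could be compared among neurons fell on different sides of each mark. With Nkx2-1, 1 of 4 was higher and 3 were lower, where 1.82% of 12590 genes were higher and 4.32% lower. Lhx1 stood at 4.79 against 36.6 CPM there (log2 ratio -2.93, -3.57 to -2.36) and Lhx1os at 13.6 against 80.4 CPM (-2.56, -2.92 to -2.22). With Dlx, 2 were higher and 2 lower, where 2.28% of genes were higher and 7.41% lower. With Tcf7l2, 1 was higher and 3 lower, where 4.77% of genes were higher and 1.93% lower. Lhx1 stood at 6.38 CPM with Tcf7l2 and 51.5 without (-3.01, -3.44 to -2.60), Lhx1os at 14.2 and 115 CPM (-3.02, -3.30 to -2.75) and Lhx5 at 7.73 and 16.4 CPM (-1.09, -1.54 to -0.64). The call of Lhx5 was lost with neurons taken at 1 Stmn2 UMI (-0.97). The same neurons enter all 3 comparisons, so these are not separate observations. Lhx8 had too few UMIs in neurons and Lhx6 too few altogether.

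**Figure D3:**
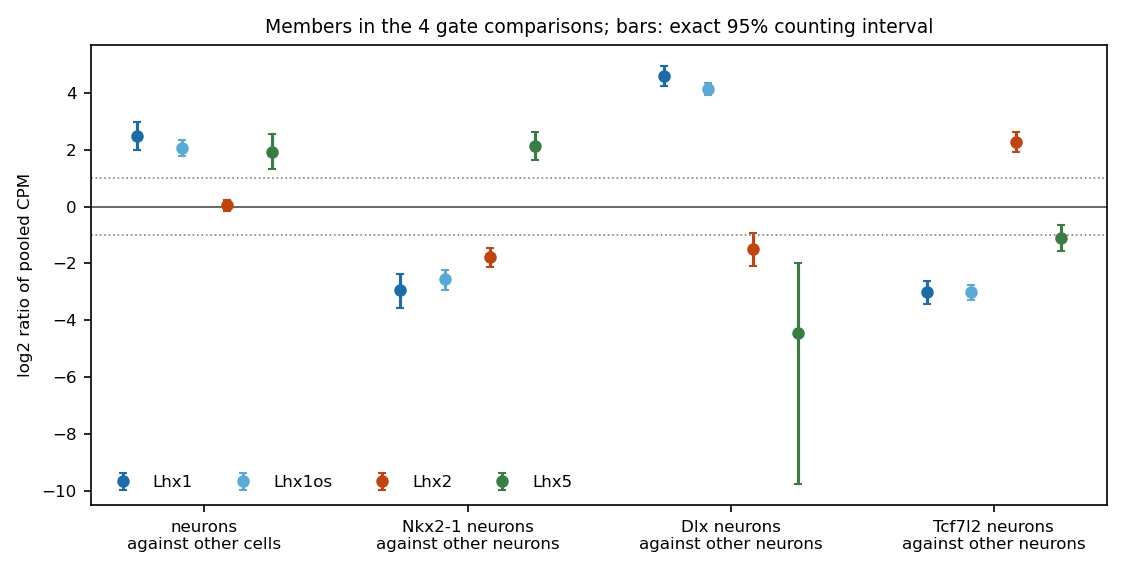
Log2 ratio of pooled CPM of Lhx1, Lhx1os, Lhx2 and Lhx5 in the 4 comparisons, with bars for the exact counting interval and a line at 0. Lhx1 and Lhx1os sit at 4.6 and 4.16 for Dlx neurons, Lhx5 alone lies above 0 for Nkx2-1 neurons (2.14) and Lhx2 alone for Tcf7l2 neurons (2.27).

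The transcripts of the divergent locus met in the same cells. A total of 175 neurons had UMIs of both Lhx1 and Lhx1os, where 16.1 would be expected from their shares (10.8 times, 9.29 to 12.6), or 8.22 times with the expected number summed over 10 bins of neurons by depth. They were 85.8% of the Lhx1 neurons and 55.2% of the Lhx1os neurons. Within Dlx neurons the ratio was 2.53 (2.11 to 3.0), in neurons without Dlx 19.6, and in the other cells 22.8 from 17 cells. For each UMI of Lhx1 there were 2.24 of Lhx1os in neurons (1.99 to 2.53), with 2.06 in Dlx neurons and 2.79 without Dlx. In cells with 0 Stmn2 UMIs this ratio was 4.33 (2.28 to 8.92) and in cells with 10 or more it was 1.83 (1.41 to 2.4), and these intervals overlap. Reads near the shared start belong to opposite strands and the gene models do not overlap.

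Pairs of different loci met seldom. Among the 15 pairs, 2 met more often (Lhx1 with Lhx1os, and Lhx6 with Lhx8 in 1 neuron) and 4 less often. Lhx6 had 1 UMI in all, so 1 shared neuron with Lhx8 was enough to be counted. The 4 were Lhx1 and Lhx1os, each with Lhx2 and with Lhx5. As 175 neurons held both Lhx1 and Lhx1os, these are not separate observations. Lhx1 and Lhx2 shared 10 neurons where 20.2 were expected (0.496 times, 0.238 to 0.912), and Lhx1 and Lhx5 shared 2 where 7.84 were expected (0.255, 0.0309 to 0.921). By depth bins these became 0.587 (0.282 to 1.08) and 0.284 (0.0343 to 1.02), intervals that hold 1. Lhx1os shared 11 neurons with Lhx2 (0.351, 0.175 to 0.628) and 4 with Lhx5 (0.328, 0.0894 to 0.840), and both stayed below 1 by depth bins. Lhx2 and Lhx5 shared 9 where 15.2 were expected (0.591, 0.270 to 1.12). With Lhx1 and Lhx1os counted as 1 locus, 873 neurons (21.8%) had a member and 841 of them exactly 1. The 32 with 2 or more were 3.67% of the 873, and the part of doublets in them was not tested. The number expected to hold 2 or more was not computed. The Lhx1 locus, Lhx2 and Lhx5 were found in 8.64%, 9.89% and 3.84% of neurons. With shares this low, most neurons with a member would hold exactly 1 even if detection were independent.

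Relatives outside the members were set beside them in the same neurons. Lhx9, the closest relative of Lhx2, was found in 277 of the 396 Lhx2 neurons (69.9%), 2.65 times the expected number (2.35 to 2.98, or 2.21 by depth bins), and its level was 555 CPM with Lhx2 and 164 CPM without (log2 ratio 1.76, 1.64 to 1.87). Lhx9 met Lhx1, Lhx1os and Lhx5 less often than expected, at 0.316, 0.370 and 0.246 times. Isl1, a factor of Pomc and other neurons of the arcuate nucleus, also met Lhx1 (0.447 times), Lhx1os (0.407), Lhx2 (0.461) and Lhx5 (0.368) less often. Lhx3, Lhx4, Isl2, Lmx1a and Lmx1b were too sparse for most pairs, though Lhx3 met Lhx2 in 3 neurons where 9.19 were expected (0.326, 0.0673 to 0.954).

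**Figure D4:**
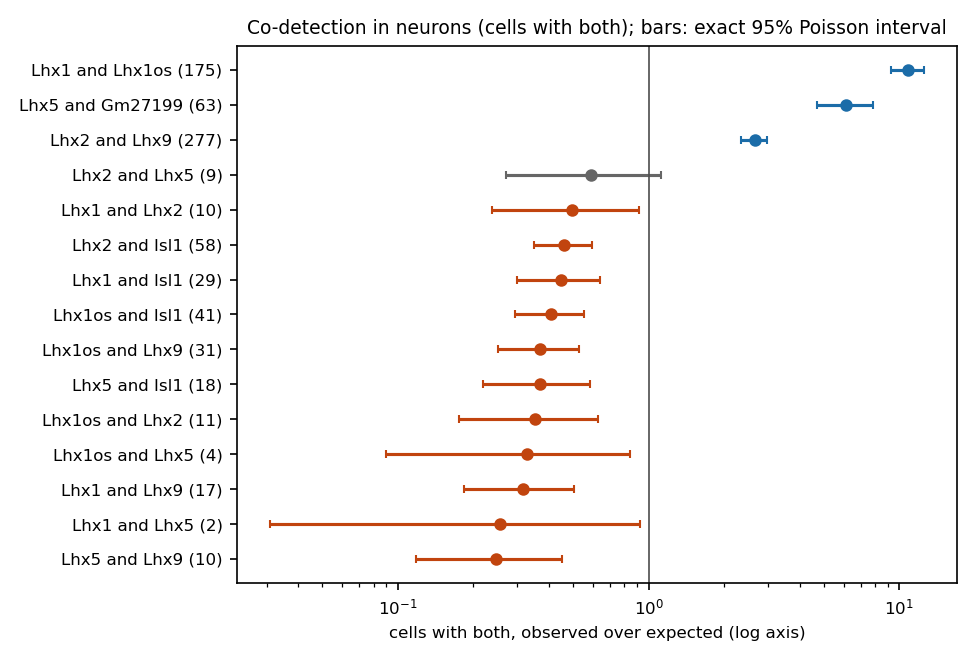
Number of neurons with UMIs of both genes over the number expected from their shares (log axis), with the number of such neurons beside each pair and bars for the exact Poisson interval. Lhx1 with Lhx1os lies at 10.8 and Lhx2 with Lhx9 at 2.65, whereas Lhx1 with Lhx2 lies at 0.496 and Lhx1 with Isl1 at 0.447.

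Genes that accompanied each member were read by comparing neurons with a UMI of the member with those without, over 12589 genes. Because these neurons are chosen by the same counts as above, the values below are a description of the company each gene keeps. The positive neurons had a median of 2897.5 UMIs for Lhx1, 2893 for Lhx1os, 3710.5 for Lhx2 and 3723.5 for Lhx5, beside 3408.5 over all neurons. All 6 neuron markers stayed within 2-fold for each of these members, and of 8 vascular or fibroblast markers 0 were higher for any of them. In the same order 5, 4, 6 and 7 of the 8 were lower, where 14%, 9.71%, 6.93% and 14.3% of all genes were. Of these markers 3, 2, 1 and 4 had 0 UMIs in the positive neurons, and with them at their bound the list medians were -0.13, -0.88, -1.15 and -0.17 instead of -0.90, -0.97, -1.24 and -1.62. In the Lhx1 neurons the leading genes included Sp9, a zinc-finger factor of interneurons (141 against 5.61 CPM, log2 ratio 4.65, 4.21 to 5.10, in 30.4% against 1.68% of neurons), Slc18a2, the vesicular monoamine transporter (4.44), Penk, the enkephalin precursor (4.4), and Dlx1 (3.87). Six6 had a UMI in 84.8% of them against 29.9%. Of 25 regional transcription factors compared, 5 were higher and 14 lower, with a median log2 ratio of -1.50 beside -0.02 over all genes, where 3.96% of genes were higher and 14% lower. The GABA genes Gad1, Gad2 and Slc32a1 were all higher (1.73, 1.79 and 1.78), while Slc17a6, the glutamate transporter, was lower (-2.0). All 8 arcuate markers were lower, among them Nkx2-1 (-2.28), Otp (-2.61), Pomc (-2.60) and Npy (-4.24), with a median of -2.13. Of 14 peptide and amine genes compared, 2 were higher and 10 lower (median -2.06, or -1.54 with genes at 0 at their bound). The 2 were Penk, in 11.3% against 0.789% of neurons, and Nts, of whose 21 UMIs 19 came from 1 neuron. Without that neuron the log2 ratio of Nts was -0.18 (-3.26 to 1.75).

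Some neurons with Lhx1 lacked any Dlx1 or Dlx2 UMI, and these were examined after the values were seen. Of these 60 neurons, 25 had a UMI of Dlx5 (41.7%, 29.1 to 55.1%), against 2.07% of 3438 neurons without Lhx1 or Dlx. Sp9 was found in 15% against 1.43% and Six6 in 78.3% against 29.0%. Among Dlx neurons Dlx5 had a UMI in 38.9% of 144 with Lhx1 and 26.1% of 364 without. For Lhx1os the share with Dlx5 was 24.1% of 137 neurons without Dlx, against 1.87% of 3361.

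Among the leading genes of the Lhx1os neurons were Sp9 (log2 ratio 4.30, 3.86 to 4.76), Slc18a2 (4.30) and Dlx1 (3.61). Here 3.23% of genes were higher and 9.71% lower. Gad1, Gad2 and Slc32a1 were higher (1.61, 1.41 and 1.66), and 7 of 8 arcuate markers were lower (list median -1.49). The exception was Pomc, at 681 against 322 CPM (1.08), found in 14.8% of the Lhx1os neurons and 24.0% of the rest. Of its 701 UMIs, 267 (38.1%) came from 1 neuron, and without it the log2 ratio was 0.40 (0.25 to 0.54). Of 14 peptide and amine genes, 4 were higher and 7 lower.

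In the Lhx2 neurons the leading genes were Gbx2, a thalamic homeobox gene (85.2 against 4.85 CPM, log2 ratio 4.13, 3.70 to 4.58, in 16.4% against 0.914% of neurons), Neurod2 (2.97), Shox2 (2.78), Zic2 (2.33) and Pcca, a mitochondrial carboxylase subunit (2.30). Foxp2 (1.26), Lef1, a Wnt effector (1.39), Zic1 (1.45) and Sp9 (1.61) were higher too. Of 25 regional factors, not all named here, 8 were higher and 10 lower (median -0.34 beside -0.03 over all genes), where 3.36% of genes were higher and 6.93% lower. Gad1, Gad2 and Slc32a1 were lower (-1.31, -1.72 and -2.53) and Slc17a6 did not pass 2-fold. The progenitor genes Hes5, Nes and Fabp7 were higher (1.03, 1.23 and 1.54), 3 of the 6 on that list. Of the arcuate markers 5 of 8 were lower, including Nkx2-1 (-1.06) and Isl1 (-1.31).

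Lhx2 was also present in 228 of the 2345 other cells, whose genes were examined after the values were seen. In those cells Rax, a homeobox gene of the hypothalamic and retinal anlage, had a UMI in 29.8% against 6.66% of the 2117 without Lhx2. Sox2 was found in 53.1% against 34.3%, Vim in 84.2% against 52.8% and Fabp7 in 52.6% against 30.4%. Tcf7l2 had a UMI in 68.0% against 43.1%, Lhx9 in 14.5% against 5.10% and the pituitary gene Pitx1 in 2.19% against 26.9%. The median depth was 3142 UMIs in the cells with Lhx2 and 3185 in those without.

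In the Lhx5 neurons the leading genes were Gm27199 (151 against 18.6 CPM, log2 ratio 3.02, 2.68 to 3.35), Nr0b1, an orphan nuclear receptor (2.25), Serpine2, a protease inhibitor (1.98), Sox14, a SoxB2 factor (1.95, in 55.8% against 14.9% of neurons), and S100a10 (1.69). Nkx2-1 (1.42, in 71.4% against 30.2% of neurons), Sox2 (1.27), Nr5a1 (1.27) and Fezf1 (1.27), of which the latter 2 are known from the ventromedial hypothalamus, were higher as well. Sox2 was the 1 of 6 progenitor markers that was higher, while Fabp7 was lower (-1.44) and Notch1 had 0 UMIs against 98 (list median -0.57, or -0.58 with Notch1 at its bound). Of 25 regional factors 3 were higher and 11 lower (median -0.70, or -0.77 with genes at 0 at their bound, beside -0.05 over all genes), where 2.96% of genes were higher and 14.3% lower. Gad1 had 0 UMIs in the 154 neurons against 240 in the rest, Gad2 was lower (-1.64) and so was Slc32a1 (-1.98). Otp (-2.74), Isl1 (-2.03) and Zic1 (-2.24) were lower, and Dlx5 had 0 UMIs. Of the 8 arcuate markers 1 was higher (Nkx2-1) and 4 were lower, Npy (-1.62) and Ghrh (-4.88, from 1 UMI, -10.18 to -2.39) besides Otp and Isl1, with a list median of -1.04. Of 14 peptide and amine genes 2 were higher and 8 lower (median -1.25, or -0.93 with genes at 0 at their bound). The 2 were Tac2 (11.8 against 5.48 CPM, 1.10, -0.16 to 2.15, from 8 UMIs in 3 neurons) and Avp. Of the 198 Avp UMIs 197 came from 1 neuron, without which its log2 ratio went from 1.56 to -6.04.

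Gm27199 is an antisense gene at chr5:120419659-120431767 on the minus strand that overlaps the start of Lhx5 by 69 bases. The strand used for counting is not given in the sources used here, so reads in the overlap may not be told apart. Both had a UMI in 63 neurons where 10.3 were expected (6.11 times, 4.70 to 7.82), which are 40.9% of the Lhx5 neurons and 23.5% of the 268 Gm27199 neurons. Within Nkx2-1 neurons the ratio was 3.41 (2.54 to 4.48). For Lhx2 the antisense gene Gm27197, examined after the values were seen, had 15 UMIs in neurons and met Lhx2 in 4 (2.70 times, 0.735 to 6.91), and Gm13584 had 0.

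**Figure D5:**
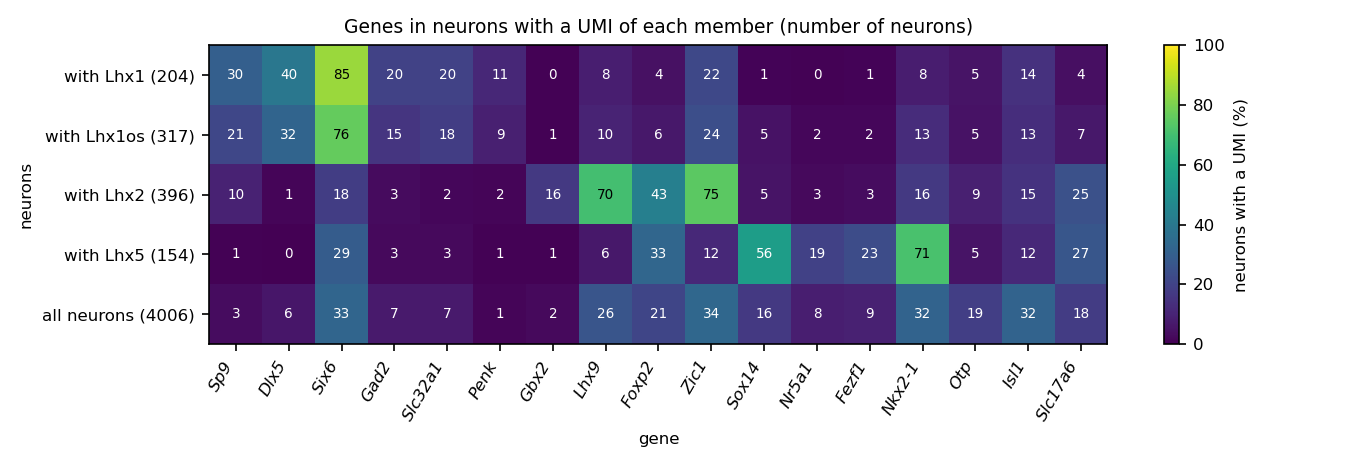
Share of neurons with a UMI (percent, by colour) of the marker and leading genes in columns, for all neurons and for neurons with Lhx1, Lhx1os, Lhx2 or Lhx5 in rows. Sp9 is found in 30.4% of the Lhx1 neurons, Gbx2 in 16.4% of the Lhx2 neurons and Sox14 in 55.8% of the Lhx5 neurons.

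The cofactors that LIM proteins need were compared over the same neurons. Ldb1, the bridge between LIM proteins, differed by a log2 ratio of 0.06, 0.05, 0.29 and -0.10 with Lhx1, Lhx1os, Lhx2 and Lhx5. Of the 10 cofactors, 0 were higher and 2 lower with Lhx1 (3.96% and 14% of all genes), 0 and 1 with Lhx1os (3.23% and 9.71%), 1 and 0 with Lhx2 (3.36% and 6.93%) and 0 and 2 with Lhx5 (2.96% and 14.3%). With so few genes, these counts are not set apart from genes in general. The list medians were -0.08, -0.04, 0.02 and -0.26. Those past 2-fold included Lmo1, a LIM-only protein that competes for Ldb1, which was higher with Lhx2 (248 against 75.6 CPM, 1.71, 1.54 to 1.88) and lower with Lhx1 (-1.53), Lhx1os (-1.76) and Lhx5 (-1.80). Lmo3 was lower with Lhx1 (-1.18), and Lmo2 was lower with Lhx5, at 2 UMIs against 88 (-1.02, -4.09 to 0.88). Between the classes of neurons, 0 of the 10 cofactors were higher and 2 lower with Nkx2-1 (1.82% and 4.32% of all genes), 0 and 3 with Dlx (2.28% and 7.41%) and 1 and 0 with Tcf7l2 (4.77% and 1.93%).

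Lhx6 and Lhx8 were at the limit of detection. The 1 UMI of Lhx6 was in a Dlx neuron that also held 3 UMIs of Lhx8, and none of the 2345 other cells had any (limit of 3 counts, 0.128%). Lhx8 had 19 UMIs in 9 neurons, 3 of them with 1, 2 with 2 and 4 with 3 UMIs, spread over 5 of the 8 classes. Its other 9 UMIs lay in 8 cells without a neuronal call, 6 of them in the vascular or fibroblast group (3.14% of 191, 1.16 to 6.71%, 8.05 CPM). These cells were set against other genes after the values were seen. Of the 9 neurons, 6 had Gad1, Gad2 or Slc32a1 (66.7%, 29.9 to 92.5%) against 16.2% of 3997 others, and 0 had Col1a1, Col1a2 or Col3a1. Of the 8 other cells, 8 had a collagen UMI (63.1 to 100%) against 15.7% of 2337, and 0 had a GABA gene, with median depths of 2744 UMIs in the 9 neurons and 5248.5 in the 8 cells. The collagen genes belong to the list that defines the vascular or fibroblast group. The 574 pituitary, 168 cycling and 730 progenitor cells had 0 UMIs of Lhx8 (limits of 3 counts, 0.523%, 1.79% and 0.411%).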

How the data were processed

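Raw UMI counts per gene and barcode were deposited by the authors from 1 pooled library, made with Cell Ranger 2.1.1 and STAR 2.4.0 on mm10, and were not normalized. All runs were used as 1 sample. Cells were kept at 200 to 4500 genes, at most 10% mitochondrial UMIs (13 genes) and at most 10 Hba-a1 UMIs. No doublet caller was run. The 10% of cells below 2167 UMIs, 635 in all, were left out where cells were thinned to that depth (seed 1). Pooled CPM had exact Poisson intervals, shares Clopper-Pearson intervals and ratios conditional exact binomial intervals. A value of 0 allows 3 counts. Genes were called at 2-fold with at least 20 UMIs in both groups together. The work was done in Python 3.11.15 (matplotlib 3.10.9 for plots, pandas 2.3.3 for tables, scipy 1.17.1 for intervals, numpy 2.4.6 for draws). Ratios were checked beforehand on simulated independent Poisson counts with known answers for the Dlx comparison. There 96.2% of intervals held the true ratio, and 5.04% of unchanged genes passed 2-fold. Counts gathered in single cells were not simulated.

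Named were the members, the marks that split the cells, the genes of the lists and, for each member, the 5 genes with the highest lower bound of the log2 ratio among those with at least 20 UMIs and a UMI in at least 10% of the positive neurons. Members and lists were chosen with earlier results of these data known. Some genes that this rule names are not reported here. Exceptions are said to be chosen after values were seen. Alternatives were the mitochondrial limit of 5%, other cuts of the marks, 2 UMIs for detection, thinning, leaving out the 5% deepest cells and no filter on low counts. The gene positions come from GENCODE and RefSeq on GRCm38, the build of the counts, and promoter entries were matched for 5 of the 6 members.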

Additional observations from a re-analysis of the deposited data

How the results depend on the processing

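Of 117 log2 ratios of members computed under alternatives, 107 stayed within the interval of the reported value, and none past 2-fold changed sign. Lhx2 and Lhx8 in neurons against other cells, which did not pass 2-fold, changed sign under some (down to -0.16 and -0.42). Lhx5 with Tcf7l2 no longer passed 2-fold with at least 1 Stmn2 UMI (-0.97), and with Dlx1 alone as the mark Lhx5 had 0 UMIs in those neurons and no ratio. With marks at 2 UMIs, Lhx1os with Nkx2-1 stood at -3.23, and Lhx1 and Lhx1os with Tcf7l2 at -3.75 and -3.65. The Stmn2 cut moved the neuron comparison most: Lhx1 in neurons against other cells stood at 3.64 with at least 1 Stmn2 UMI and 1.40 with at least 3, and Lhx1os at 2.69 and 1.14. With detection by at least 2 UMIs the shares of neurons were 2.60% for Lhx1, 4.89% for Lhx1os, 2.97% for Lhx2, 0.474% for Lhx5 and 0% for Lhx6, and after thinning 4.03%, 6.28%, 6.60% and 2.07% for the first 4. The pairs met more often numbered 1 with at least 2 UMIs, and those met less often 1 with at least 2 UMIs, 2 with expected numbers summed over 10 bins of depth and 2 after thinning. Genes higher numbered 498 with Lhx1, 406 with Lhx1os, 423 with Lhx2 and 373 with Lhx5. Without a filter on low counts they were 1205, 1297, 1477 and 984, and with at least 2 UMIs of the member, from fewer positive neurons, 732, 527, 770 and 1526. In an alternative chosen after seeing the data, without the neuron with the most UMIs, Nts with Lhx1 went from 3.21 to -0.18 and Avp with Lhx5 from 1.56 to -6.04. No paired analysis was possible because the library is 1 group and the cells carry no label of run or embryo, so no run could be left out. Thinning took the share of Lhx5 from 3.84% to 2.07% of neurons, while Lhx8 stood at 0.225% and 0.242%.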
